A study of Saccharomyces cerevisiae with 6 samples.

Results

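The kinetochore is the protein assembly that joins each centromere to spindle microtubules, and the 33 genes described here encode most of its core in budding yeast, Saccharomyces cerevisiae. The rule that picks them uses names and no measured value. It takes the entries of the authors' RNA sequencing table that carry one of 33 kinetochore gene names. Of the 33 genes, 32 stood in the table under that name, and NDC80 stood under its older name TID3. The table holds 6932 entries in all. RNA came from meiotic cultures of a bas1 mutant, an ino4 mutant and wild type (WT), 2 samples each and 6 in all, taken at 4 h in meiosis in potassium acetate at 30 °C. All cultures first had 13.5 to 14 h of presporulation growth in 1% yeast extract, 2% peptone and 1% acetate. Sporulation was in 2% acetate. Bas1 is a Myb-related activator of purine and histidine synthesis genes. Ino4 belongs to the helix-loop-helix factors and activates phospholipid synthesis genes. For the strain background, the kind of mutant allele and the number of isolates, the sources used here give nothing.

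The authors' table gives 1 value per gene and genotype, in FPKM (fragments mapped to a gene model, scaled to its length and to all mapped fragments). How far 2 samples of the same genotype lie apart cannot be read from it. No test was possible, and every difference below describes these combined values. Read numbers are unknown too. A lower value cannot be told apart between fewer cells that hold the transcript and less transcript per cell. BAS1 had an FPKM of 0.00985 in bas1, against 19.4 in WT. INO4 had an FPKM of 0.339 in ino4, against 307 in WT. Both values go with the labels. Transcripts of all 12 early meiotic marker genes were present. Of the 12, 11 were higher in bas1 than in WT with a median log2 difference of 0.15, 7 were higher in ino4 than in WT with a median of 0.11, and none was 1.5-fold apart. IME1, the master activator of meiotic entry, had an FPKM of 7959 in bas1, 6261 in ino4 and 7919 in WT. DMC1, the meiotic recombinase gene, had 4058 in bas1, 4096 in ino4 and 3665 in WT. Of 6 haploid markers none was at 0, and they did not move together. The a-factor gene MFA1 had an FPKM of 248 in bas1, 607 in ino4 and 335 in WT. MFA2, the other a-factor gene, had 37.2 in bas1, 158 in ino4 and 62.3 in WT, so both were highest in ino4. Their entries are short, listed at 111 bp for MFA1 and 117 bp for MFA2. The mating receptor gene STE3 had 23.6 in bas1, 9.98 in ino4 and 15.4 in WT, the opposite order, in an entry that shares its position with YKL177W. The receptor gene STE2 had 19.6 in bas1, 14.9 in ino4 and 16.1 in WT. The alpha-factor gene MF(ALPHA)1 had 46.9 in bas1, 27.6 in ino4 and 31.7 in WT. Whether the cells behind these markers bear on the kinetochore values was not tested. Of 4 markers of G1 and daughter cells, 3 were lower in bas1 than in WT, with a median log2 difference of -0.74. By the 2-fold rule given below, 2 of the 4, CLN1 and CTS1, were apart in bas1, against 3.32% of all compared entries. CLN1 had an FPKM of 10.3 in bas1, 24.4 in ino4 and 24.1 in WT. CTS1 had 183 in bas1, 418 in ino4 and 400 in WT. EGT2 was less far below WT, with 56.0 in bas1 and 72.5 in WT. CLN2 was higher, with 27.1 in bas1 and 24.4 in WT. In ino4, 2 of the 4 were lower than in WT, with a median of 0.01. Whether these markers bear on the kinetochore values was not tested.

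The kinetochore is built outward from the centromere. Cse4 replaces histone H3 in the centromeric nucleosome, Mif2 and the Ctf19 complex sit on it, the Mtw1 complex and Spc105 form the middle layer, and the Ndc80 and DASH complexes hold the microtubule. Ipl1 is the Aurora kinase that releases wrong attachments, and Sli15 and Bir1 are its partners. In meiotic prophase of this yeast the outer kinetochore is taken apart, and it is rebuilt when the factor Ndt80 starts the middle phase of sporulation. NDC80 itself is known for a long meiotic transcript that starts upstream of the usual start, carries the coding sequence and yields little protein.

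No kinetochore gene was 2-fold apart between any of the genotypes. Values were compared as log2(FPKM + 1), a scale that understates the change of low genes, and a difference of 1 or more in size was the rule for 2-fold. By that rule 0 of 33 genes were apart between bas1 and WT, where 3.32% of the 6153 compared entries were apart. Between ino4 and WT the count was 0 of 33, against 2.44% of entries, and between bas1 and ino4 it was 0 of 33, against 5.56%. With shares this small, a count of 0 among 33 genes is near the background. By a 1.5-fold rule, DAD1 alone among the 33 was apart between bas1 and WT, where 11.3% of entries were apart and 7.33% were lower in bas1. No member was apart between ino4 and WT, where 6.94% of entries were. CTF19 alone among the 33 was apart between bas1 and ino4, where 15.0% of entries were apart and 8.22% were lower in bas1. Among entries in the members' range of mean FPKM, a background chosen after seeing the data, the 2-fold shares were 2.80% for bas1 and WT, 1.20% for ino4 and WT, and 4.87% for bas1 and ino4. The 1.5-fold shares there were 10.2%, 4.37% and 13.1% in the same comparisons.

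In bas1, 23 of 33 genes were lower than in WT and 10 were higher, with a median log2 difference of -0.10, against 49.4% lower and a median of 0.0051 over all entries. Without the 3 members listed at under 300 bp that median was -0.04, and without the 4 members that overlap another entry it was -0.05. In ino4, 20 of 33, or 60.6%, were lower than in WT and 13 were higher, with a median of -0.04. Over all entries 50.6% were lower in ino4, so that count is near the background. Both comparisons use the same WT values, so a gene lower in both mutants is not a repeated result. Between bas1 and ino4, 18 of 33 were lower in bas1 and 15 were higher, with a median of -0.03. Sign aside, the median difference of the members from WT was 0.20 in bas1, where that of all entries was 0.21, and 0.15 in ino4, where that of all entries was 0.16. Between the mutants it was 0.18 for the members and 0.22 for all entries.

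**Figure D1:**
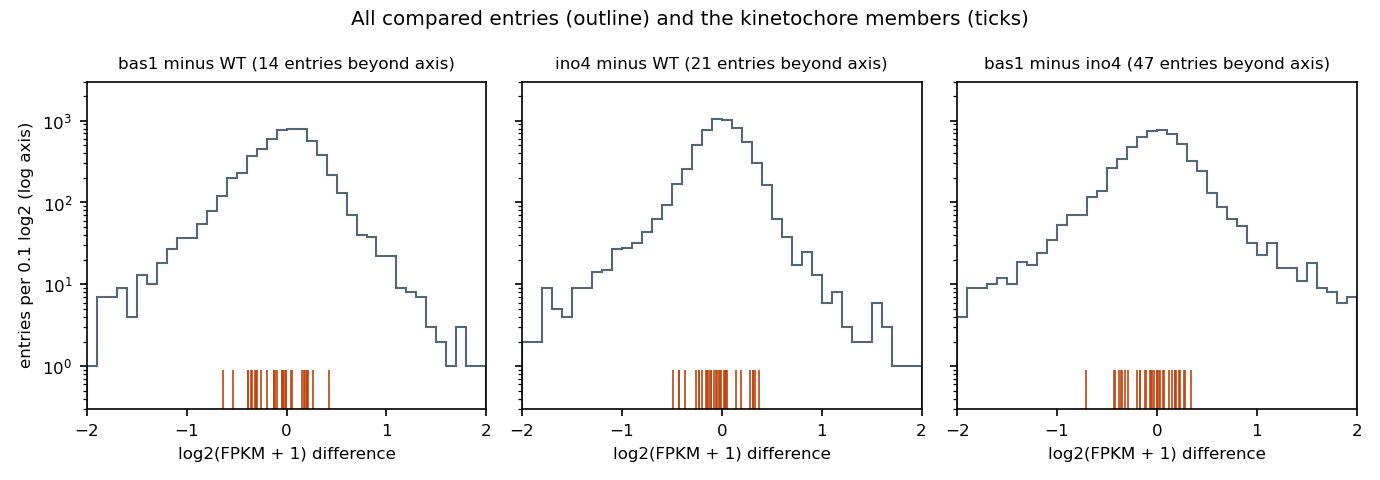
Differences in log2(FPKM + 1) for all 6153 compared entries (outline, entries per 0.1 on a log axis) and for the 33 kinetochore genes (ticks) in the 3 comparisons. The members lie between -0.63 and 0.42 for bas1 minus WT, between -0.49 and 0.37 for ino4 minus WT, and between -0.71 and 0.34 for bas1 minus ino4.

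Levels differed far more between genes than between genotypes. FPKM, which is scaled to the length of the gene model, ran from 19.8 at MIF2 to 998 at DAD4 in bas1, from 16.8 to 1331 at the same genes in ino4, and from 20.2 to 1070.4 in WT. The median over the 33 genes was 93.2 in bas1, 93.8 in ino4 and 98.7 in WT, against 53.6 in bas1, 53.6 in ino4 and 53.5 in WT over all compared entries. By contrast, the highest of the 3 genotype values was less than 1.5 times the lowest for 31 of the 33 genes, or 93.9%, against 78.3% of all compared entries. These are ratios of FPKM without the added 1, and all compared entries include ones far below the lowest member. The share within the members' range of mean FPKM was not taken, so the 2 shares do not set the members apart.

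**Figure D2:**
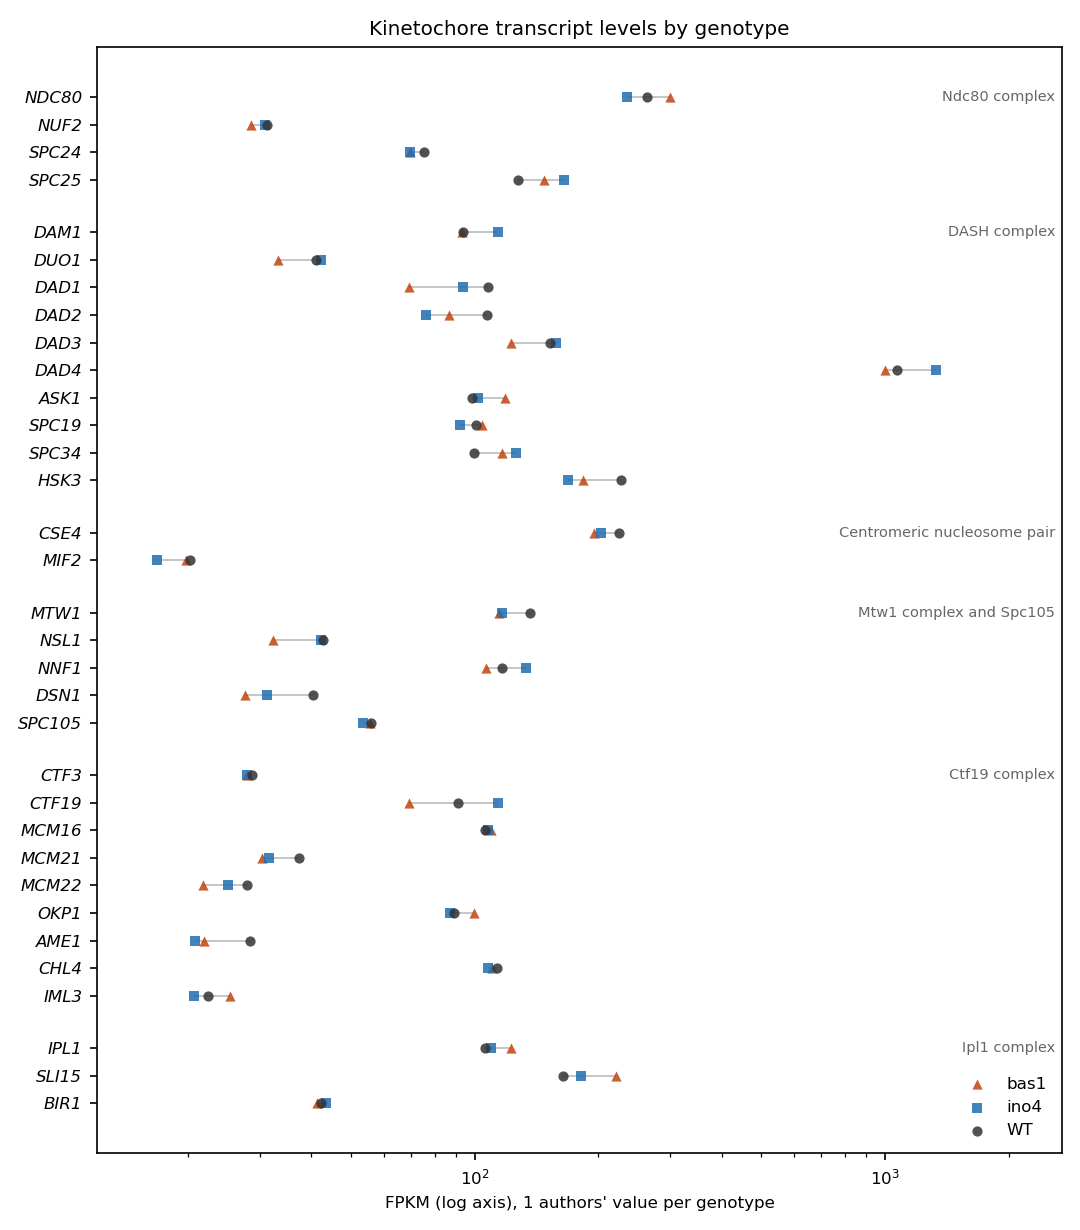
FPKM on a log axis for each kinetochore gene, grouped by complex, with 1 authors' value for bas1 (triangle), ino4 (square) and WT (circle). Grey lines join the lowest and highest genotype, and they are short beside the spread between genes, from 16.8 for MIF2 in ino4 to 1331 for DAD4 in ino4.

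At the centromere itself, the histone variant gene CSE4 was among the more abundant members, with an FPKM of 196 in bas1, 203 in ino4 and 224 in WT. MIF2, which encodes the CENP-C protein that binds the Cse4 nucleosome, was the lowest, with 19.8 in bas1, 16.8 in ino4 and 20.2 in WT. CSE4 was thus 9.86 times MIF2 in bas1, 12.1 times in ino4 and 11.1 times in WT. The log2 differences from WT were -0.20 in bas1 and -0.15 in ino4 for CSE4, and -0.03 in bas1 and -0.26 in ino4 for MIF2.

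The Ctf19 complex links the centromeric nucleosome to the outer layers and helps load cohesin around centromeres. Its 9 members had a median FPKM of 30.2 in bas1, 31.6 in ino4 and 37.2 in WT, the lowest among the groups of 3 or more members, and they fell into a low and a high set. CTF3, MCM21, MCM22, AME1 and IML3 lay between 20.7 and 37.2 in every genotype. CTF19, MCM16, OKP1 and CHL4 lay between 69.3 and 114. OKP1 and AME1 encode a pair that binds DNA and the Mtw1 complex as 1 unit and is essential, yet OKP1 had an FPKM of 99.5 in bas1, 87.3 in ino4 and 89.3 in WT, and AME1 had 21.9 in bas1, 20.8 in ino4 and 28.3 in WT. Similarly, CHL4 and IML3 encode a pair of interacting subunits, and CHL4 had 109.97 in bas1, 107.7 in ino4 and 114 in WT where IML3 had 25.3 in bas1, 20.7 in ino4 and 22.4 in WT. The genes of such a pair differed several-fold in transcript level in all 3 genotypes.

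In bas1, 6 of the 9 Ctf19 complex genes were lower than in WT and 3 were higher, with a median log2 difference of -0.05. In ino4, 7 were lower and 2 were higher, with a median of -0.08. AME1 had the lowest value of the complex in ino4, at -0.43, and was at -0.35 in bas1. CTF3, which encodes a large scaffold subunit, was nearly level, with FPKM values of 27.8 in bas1, 27.8 in ino4 and 28.7 in WT. MCM16, whose product partners Ctf3, differed from WT by 0.05 in bas1 and 0.03 in ino4. MCM22, whose product is in the same subcomplex, differed from WT by -0.34 in bas1 and -0.15 in ino4.

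CTF19 had the widest range of the 33 genes, with an FPKM of 69.3 in bas1, 114 in ino4 and 91.1 in WT. It lay below WT in bas1, at a log2 difference of -0.39, and above WT in ino4, at 0.32, and the difference between bas1 and ino4 was -0.71. The CTF19 entry (sacCer2 chromosome XVI, 517649 to 520231) is listed at the same 2583 bp as the entry of IRC15, which encodes a protein that acts on microtubules. IRC15 had an FPKM of 58.6 in bas1, 89.95 in ino4 and 83.5 in WT, with log2 differences of -0.50 in bas1 and 0.11 in ino4 from WT. Both entries were lowest in bas1. The position listed for both entries may be longer than either gene model. Neither the separate model lengths nor the use of strand in counting is given. How far reads of the 2 genes were kept apart is therefore unknown.

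In the middle layer, all 5 genes of the Mtw1 complex and Spc105 had values below WT in bas1, with a median log2 difference of -0.25. DSN1, whose protein is a target of Ipl1, had an FPKM of 27.5 in bas1, 31.1 in ino4 and 40.4 in WT. It was thus 0.681 of WT in bas1 and 0.770 of WT in ino4, the lowest ratio of the complex in each mutant. NSL1, another subunit of the complex, had 32.3 in bas1, 42.3 in ino4 and 42.7 in WT, so the ino4 value was close to WT. MTW1, which gives the complex its name, had 114 in bas1, 117 in ino4 and 137 in WT. The MTW1 entry shares its position with the entry of YAL034C-B, whose FPKM of at most 5.33 is small beside it.

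NNF1, which encodes the remaining subunit of the Mtw1 complex, had FPKM values of 107 in bas1, 133 in ino4 and 117 in WT. SPC105, which encodes the scaffold that gathers checkpoint proteins, was nearly the same in each genotype, with 55.7 in bas1, 53.5 in ino4 and 55.7 in WT. Its log2 difference in bas1 was -0.0013, so the direction rests on the other 4 genes. In ino4 the group went both ways, with 4 genes lower, 1 higher and a median of -0.06. KRE28, the partner of Spc105 and not one of the 33, was lower in bas1 by the 1.5-fold rule, with an FPKM of 58.9 in bas1, 69.7 in ino4 and 92.6 in WT.

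The Ndc80 complex is a rod of NDC80, NUF2, SPC24 and SPC25 products in equal numbers that binds the microtubule. Its transcripts were far from equal. NDC80 (sacCer2 chromosome IX, 78074 to 80149) had an FPKM of 299 in bas1, 236 in ino4 and 263 in WT. NUF2, whose protein pairs with Ndc80 at the microtubule end, had 28.4 in bas1, 30.8 in ino4 and 31.1 in WT. NDC80 was thus 10.5 times NUF2 in bas1, 7.64 times in ino4 and 8.44 times in WT. The table has a single entry for NDC80, of 2076 bp, so the long meiotic transcript and the usual transcript cannot be told apart in these values.

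SPC24 and SPC25 encode the end of the rod that meets the Mtw1 complex. SPC24 had FPKM values of 69.6 in bas1, 69.6 in ino4 and 75.3 in WT, and SPC25 had 147 in bas1, 165 in ino4 and 127 in WT. NDC80 lay above WT in bas1, at a log2 difference of 0.18, and below WT in ino4, at -0.16. SPC25 was higher than WT in both, at 0.21 in bas1 and 0.37 in ino4, and its ino4 difference was the highest of the 33 genes. NUF2 and SPC24 were slightly lower, at -0.13 and -0.11 in bas1 and at -0.01 and -0.11 in ino4. The complex as a whole had a median of 0.04 in bas1 and -0.06 in ino4.

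The DASH complex forms rings around microtubules in fungi, and its 10 genes held both the most abundant member and the lowest difference in bas1. DAD4 had an FPKM of 998 in bas1, 1331 in ino4 and 1070.4 in WT. DUO1, at the other end, had 33.1 in bas1, 42.3 in ino4 and 41.1 in WT. The DAD4 entry is listed at 342 bp, a position it shares with the entry of YDR320W-B, which is at 0 in every genotype. That position may be longer than the DAD4 gene model, whose own length is not given. The 10 subunits stand in equal numbers in the ring, and apart from DAD4 and DUO1 their FPKM values lay between 69.2 and 227.

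DAD1 (sacCer2 chromosome IV, 478472 to 478756) had an FPKM of 69.2 in bas1, 93.8 in ino4 and 108 in WT. Its log2 difference in bas1 was -0.63, the lowest of the 33 genes there, and its WT level was 1.56 times its bas1 level. Within the DASH complex, DAD2, DAD3, HSK3 and DUO1 came next at -0.31, -0.31, -0.31 and -0.30 in bas1. HSK3, the smallest subunit gene at 210 bp, had 184 in bas1, 169 in ino4 and 227 in WT. DAD2 had 86.3 in bas1, 76.0 in ino4 and 107 in WT, and its difference of -0.49 was the lowest of the 33 genes in ino4. DAD3 had 123 in bas1, 157 in ino4 and 153 in WT, so its ino4 value was close to WT.

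The remaining DASH genes apart from DAD4 were level with WT in bas1 or above it. DAM1, which encodes the subunit that contacts the Ndc80 complex and is a main target of Ipl1, had an FPKM of 93.2 in bas1, 114 in ino4 and 93.5 in WT. ASK1 had 118 in bas1, 102 in ino4 and 98.7 in WT, in an entry that shares its position with YKL053W. SPC34 had 116 in bas1, 126 in ino4 and 99.9 in WT, and SPC19 had 104 in bas1, 92.0 in ino4 and 101 in WT. Altogether 7 of the 10 DASH genes were lower in bas1 than in WT, with a median log2 difference of -0.20. That median was -0.0038 for the 7 entries listed at 300 bp or more and -0.31 for the 8 entries that overlap no other. The 3 DASH entries listed at under 300 bp were DAD1, DAD3 and HSK3. DAD4 stayed among the longer entries by a listed position that it shares with another entry, so its own length was not checked. Whether read fragment length bears on the values of these 4 genes was not tested. In ino4, 4 of 10 were lower, and the median of 0.04 became -0.05 without the entries that overlap another.

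Of the 3 genes of the Ipl1 complex, 2 were higher in bas1 than in WT and 1 was lower, and none was 1.5-fold apart. SLI15, which encodes the INCENP protein that anchors and activates the kinase, had an FPKM of 221 in bas1, 181 in ino4 and 164 in WT. Its log2 difference of 0.42 in bas1 was the highest of the 33 genes. IPL1, the kinase gene, had 122 in bas1, 109.8 in ino4 and 106 in WT, a difference of 0.20 in bas1. BIR1, which encodes the survivin protein that targets the kinase to centromeres, had 41.3 in bas1, 43.3 in ino4 and 42.3 in WT, level in all 3. The median for the 3 genes was 0.20 in bas1 and 0.05 in ino4. NBL1, the borealin gene of the same complex and not one of the 33, had an FPKM of 102 in bas1, 95.5 in ino4 and 74.6 in WT.

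**Figure D3:**
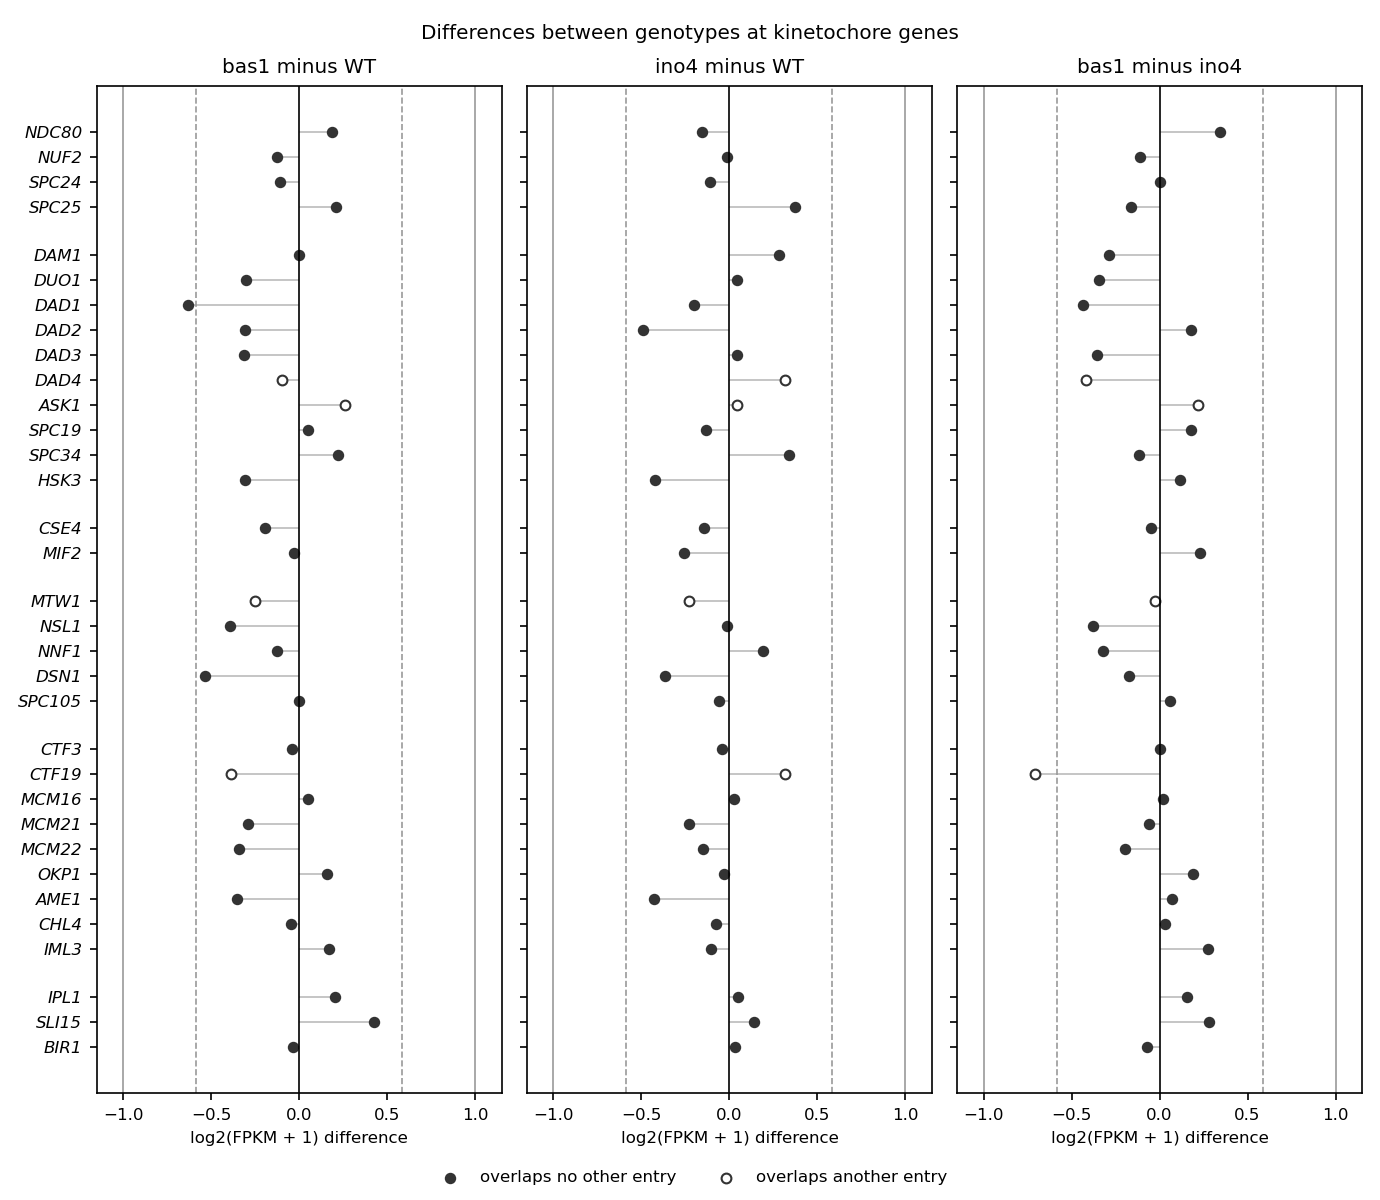
Differences in log2(FPKM + 1) for each of the 33 genes in the 3 comparisons, with solid lines at 2-fold and dashed lines at 1.5-fold. DAD1 passes a dashed line in bas1 minus WT and CTF19 in bas1 minus ino4, no gene passes a solid line, and the 4 open circles mark entries that share a position with another.

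Middle sporulation genes, which mark the exit from meiotic prophase, differed more between the genotypes than the kinetochore genes. Of 14 middle genes, 13 were higher in bas1 than in WT with a median log2 difference of 0.87, and all 14 were lower in ino4 than in WT with a median of -0.44. Over all entries 3112 of 6153 were higher in bas1, and 50.6% were lower in ino4. By the 2-fold rule 4 of the 14 were apart in bas1 and 3 in ino4, against 3.32% and 2.44% of entries. Between bas1 and ino4 the count was 10, against 5.56%. The summed FPKM of the 14 was 6619 in bas1, 2177 in ino4 and 3828 in WT. NDT80 had an FPKM of 525 in bas1, 277 in ino4 and 282 in WT, and the polo kinase gene CDC5 had 409 in bas1, 112 in ino4 and 144 in WT. The part of this difference in the kinetochore values was not tested. Between bas1 and ino4, where the middle genes were furthest apart at a median of 1.54, the 33 kinetochore genes had a median of -0.03.

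Of 5 monopolin and shugoshin genes, which act on kinetochores in meiosis, 4 were higher in bas1 than in WT and all 5 were lower in ino4 than in WT. MAM1, which encodes the monopolin subunit that holds sister kinetochores together in meiosis I, had an FPKM of 266 in bas1, 116 in ino4 and 164 in WT. SGO1, which encodes shugoshin, the protector of centromeric cohesin, had 160 in bas1, 78.3 in ino4 and 93.9 in WT. Both passed the 1.5-fold rule in bas1 relative to WT, and the 2-fold rule between bas1 and ino4, at a log2 difference of 1.19 for MAM1 and 1.02 for SGO1. That is 2 of 5 genes in each comparison, where 11.3% and 5.56% of all entries passed those rules. HRR25, the kinase of monopolin, had 281 in bas1, 181 in ino4 and 196 in WT. CSM1 and LRS4, which encode the monopolin subunits also present in the nucleolus, were nearer to WT, with log2 differences in bas1 of -0.10 for CSM1 and 0.30 for LRS4. For the 5 genes the median was 0.52 in bas1 and -0.16 in ino4. Sign aside, their median of 0.16 in ino4 was close to the 0.15 of the 33 members.

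Counts past the 1.5-fold rule in the other partner lists were few, beside 11.3% of all entries for bas1 and WT and 15.0% for bas1 and ino4. By that rule 7.33% of entries were lower in bas1 than in WT, and 6.79% were higher in bas1 than in ino4. The counts by themselves do not set these lists apart. Of 5 genes of the CBF3 complex and Cbf1, which read the centromere sequence, none was 1.5-fold apart, and the largest difference was 0.32 for SKP1 in ino4. SCM3, the chaperone gene for Cse4, had an FPKM of 34.1 in bas1, 42.7 in ino4 and 43.7 in WT. Of 6 spindle checkpoint genes, MPS1 was apart between bas1 and ino4 by the 1.5-fold rule, with 75.6 in bas1, 46.3 in ino4 and 59.8 in WT. Mps1 is also needed to build the spindle pole body. Of 8 further partners of the Ctf19, Spc105 and Ipl1 proteins, KRE28 was the 1 gene past the 1.5-fold rule. STU2, a microtubule polymerase gene, was the 1 of 14 motor and plus-end genes past that rule, between bas1 and ino4, with an FPKM of 72.2 in bas1 and 40.2 in ino4, beside 47.9 in WT.

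**Figure D4:**
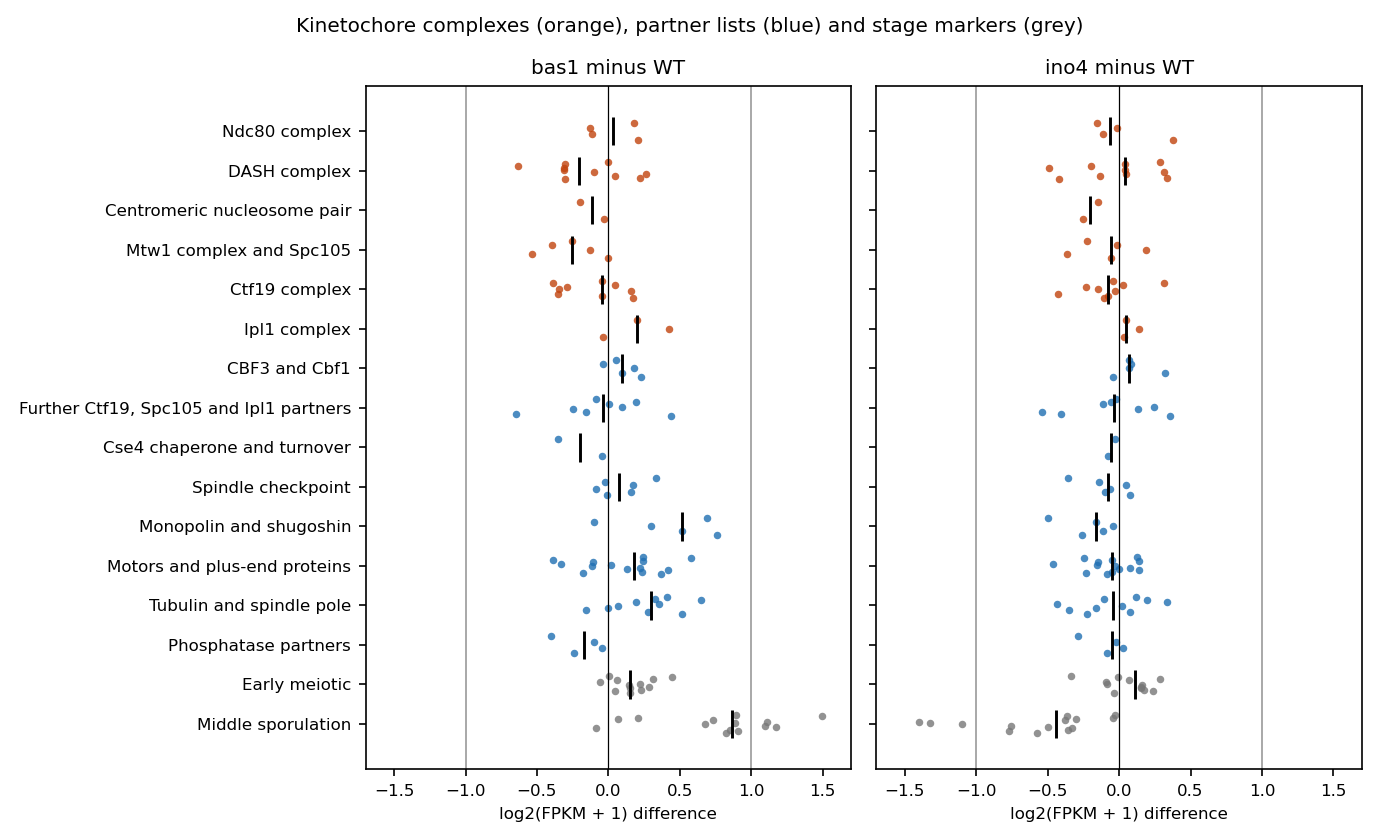
Differences in log2(FPKM + 1) from WT for bas1 and ino4 in the 6 kinetochore groups (orange), the 8 lists of partner genes (blue) and 2 lists of stage markers (grey), 1 point per gene and a black bar at each median. The kinetochore medians lie between -0.25 and 0.20 in bas1, and the middle sporulation genes lie apart from them at 0.87 in bas1 and -0.44 in ino4.

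The sequence before the genes was searched for short words known as sites of meiotic regulators and of Bas1 and Ino4. The window was the 250 bases before the start codon, in the RefSeq assembly R64, and all 33 members had one. The words were CACAAAA, or the word CACAAAT, or the word CGCAAAA, or the word CGCAAAT, for the middle sporulation element that Ndt80 binds, GGCGGC for the core of URS1, the Ume6 element of early meiotic genes, TGACTC for the core shared by Bas1 and Gcn4 sites, and CATGTG for the core of Ino2 and Ino4 sites. Each was sought on both strands, and no match in a member overlapped one of another element. A middle sporulation element word was found before 8 of the 33 kinetochore genes, or 24.2%, against 17.1% of 6001 protein-coding genes. It was found before 11 of the 14 middle sporulation genes. The URS1 core was before 0 of 33 members, against 4.17% of all genes and 8 of the 12 early meiotic genes. Sequence beyond the 250 bases was not searched, and where the long meiotic NDC80 transcript starts is not given here. The Bas1 and Gcn4 core stood before 2 of 33, DUO1 and OKP1 (6.06%, against 6.25% of all), and the Ino2 and Ino4 core before 0 of 33 (against 5.57%).

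The 8 members with a middle sporulation element word were NDC80, SPC25, ASK1, DSN1, CTF19, AME1, CHL4 and IPL1. Their log2 differences in bas1 ran from -0.54 at DSN1 to 0.26 at ASK1 with a median of 0.07, against -0.11 for the other 25. In ino4 the medians were -0.02 with a word and -0.04 without. The 11 middle genes with such a word had a median of 0.88 in bas1, and the 3 without had 0.73. A word match is a description of these letters and not a binding site.

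**Figure D5:**
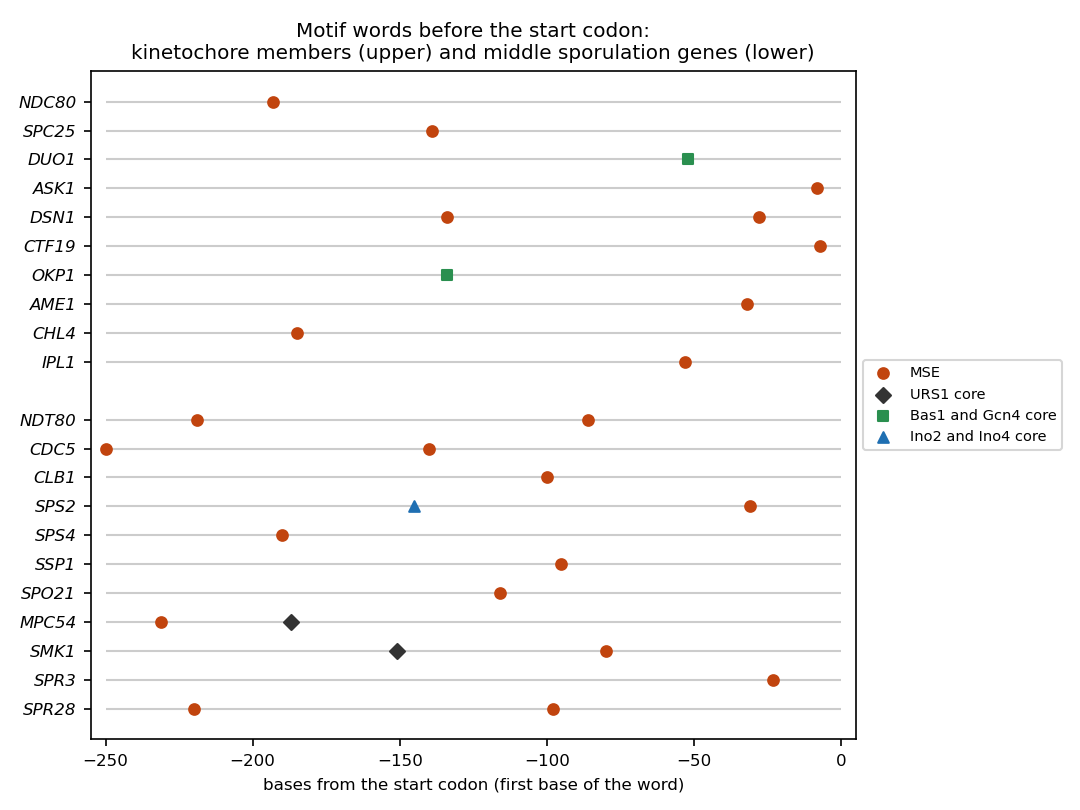
Positions of the searched words in the 250 bases before the start codon, in bases from the start codon, for the 10 kinetochore genes with a match (upper) and the 11 middle sporulation genes with a match (lower). Circles mark the middle sporulation element words, which 8 members and all 11 middle genes shown carry.

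Windows of 4 genes are printed because they show the cases side by side. NDC80 has 1 middle sporulation element word, DSN1 has 2 of them and was lower in both mutants, DUO1 has the Bas1 and Gcn4 core, and MAM1 has a middle sporulation element word on the opposite strand and was 1.62 times WT in bas1. Each runs 5′ to 3′ on the strand of the gene, from 250 bases before the start codon to the 50th base of the coding sequence, with positions in R64. Capitals mark the matched words, which were sought only in the 250 bases before the start codon. The 50 coding bases were not searched. In lower case, those of NDC80 hold CATGTG and its reverse complement CACATG, and those of DSN1 hold GCCGCC, the reverse complement of GGCGGC.
NDC80 (chrIX:77824-78123, plus strand): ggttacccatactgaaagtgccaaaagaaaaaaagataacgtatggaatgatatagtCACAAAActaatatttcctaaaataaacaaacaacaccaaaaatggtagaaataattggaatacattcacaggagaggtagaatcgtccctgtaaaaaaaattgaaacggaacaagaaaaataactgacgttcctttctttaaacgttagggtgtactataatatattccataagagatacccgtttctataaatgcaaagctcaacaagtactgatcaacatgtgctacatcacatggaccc
DSN1 (chrIX:375181-375480, plus strand): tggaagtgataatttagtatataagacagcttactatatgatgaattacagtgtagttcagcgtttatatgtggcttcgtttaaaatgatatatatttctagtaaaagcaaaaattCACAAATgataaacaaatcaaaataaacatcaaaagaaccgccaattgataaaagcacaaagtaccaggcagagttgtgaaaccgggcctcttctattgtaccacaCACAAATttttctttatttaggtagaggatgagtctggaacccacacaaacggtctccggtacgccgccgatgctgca
DUO1 (chrVII:389662-389961, minus strand): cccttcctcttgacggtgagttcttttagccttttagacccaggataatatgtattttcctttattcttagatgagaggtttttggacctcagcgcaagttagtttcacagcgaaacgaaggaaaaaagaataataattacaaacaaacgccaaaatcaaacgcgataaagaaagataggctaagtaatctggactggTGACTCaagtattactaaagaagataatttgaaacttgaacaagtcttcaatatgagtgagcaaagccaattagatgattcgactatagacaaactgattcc
MAM1 (chrV:372076-372375, plus strand): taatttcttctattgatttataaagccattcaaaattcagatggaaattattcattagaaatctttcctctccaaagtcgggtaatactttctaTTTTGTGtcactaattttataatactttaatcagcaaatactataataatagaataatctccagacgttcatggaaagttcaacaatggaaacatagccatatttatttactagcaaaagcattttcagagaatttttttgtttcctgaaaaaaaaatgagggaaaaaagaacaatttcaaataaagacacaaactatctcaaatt
Counted from the start codon, the words begin at position -193 in NDC80, at -134 and -28 in DSN1, at -52 in DUO1 and at -156 in MAM1.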

How the data were processed

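The authors deposited FPKM values, 1 column per genotype per the file headers. STAR, Cufflinks and the build sacCer2 are named in the submitters' processing notes, while for versions, settings, strand use and the way 2 samples became 1 value the sources used here give nothing. Per the labels' protocols, total RNA was extracted with phenol from 15 OD units of cells per sample and made into TruSeq libraries. The depth per sample is unknown, so no intervals or floors are given.

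Entries with FPKM of at least 1 in a genotype and above 0 in all 3 were compared (6153 of 6932), as differences of log2(FPKM + 1), without further scaling. All 33 members passed. The limma test that was planned needs a value per sample and was replaced by a 2-fold and a 1.5-fold rule. Gene names were matched by symbol (119 of 125 list genes) or by RefSeq R64 synonym or locus tag (6). Positions are those of the table in sacCer2, counted from 1, save for the printed windows, which were read from RefSeq R64 by gene name. Entry lengths were taken from the sacCer2 positions, which overlapping entries can share. Named genes were the members, BAS1, INO4, NDT80, marker genes, and from each partner list those at least 1.5-fold apart, or else the largest difference. Other genes were named after their values were seen. The members and lists were chosen with earlier results of these data known. The steps were tested on simulated data. Alternatives are listed with their effects at the end. Computations used Python 3.11.15, pandas 2.3.3, numpy 2.4.6 and matplotlib 3.10.9.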

Additional observations from a re-analysis of the deposited data

How the results depend on the processing

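No paired analysis was possible because the table holds 1 value per genotype, and for the same reason no replicate could be left out. Alternatives were pseudocounts of 0.1 and 5, no filter or an FPKM of at least 5, 3 scalings, a 1.5-fold rule, leaving out entries under 300 bp, and leaving out entries that overlap another. A median was taken as moved when it shifted by 0.1 or more on the log2 scale. With the 1.5-fold rule the count of members apart became 1 for bas1 against WT and 1 for bas1 against ino4, from 0 each. The DASH median for bas1 minus WT was -0.0038 for entries of at least 300 bp and -0.31 for entries that overlap no other, against -0.20 as reported, where 7 and 8 of the 10 genes remained in the comparison. The median over all members ranged from -0.10 to -0.04 for bas1 minus WT, from -0.06 to -0.04 for ino4 minus WT and from -0.03 to -0.0004 for bas1 minus ino4. No member reached 2-fold under any of these settings. The largest member difference was 0.72 in size, under quantile normalization. Entries past 2-fold numbered 204 for bas1 against WT and 150 for ino4 against WT, or 124 and 72 with a pseudocount of 5. The 1.5-fold rule gave 696, 427 and 924 in the 3 comparisons, against 204, 150 and 342. For ino4 against WT the count was 97 among entries that overlap no other. Within the members' range of mean FPKM, an alternative chosen after seeing the data, the 2-fold counts were 135 for bas1 against WT and 58 for ino4 against WT.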

Other observations

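Of 10 tubulin and spindle pole body genes, 8 were higher in bas1 than in WT, with a median log2 difference of 0.30. Over all entries 3112 of 6153 were higher in bas1, with a median of 0.0051. In ino4, 5 of the 10 genes were higher than in WT, with a median of -0.04. The beta-tubulin gene TUB2 had an FPKM of 901 in bas1, 669 in ino4 and 720.0 in WT. TUB3, the minor alpha-tubulin gene, had 391 in bas1, 286 in ino4 and 249 in WT and was the 1 gene of the list past the 1.5-fold rule in bas1 against WT. TUB3 and TUB1 are close copies, so reads could be split between them. SPC42 and CNM67, which encode the central and outer layers of the spindle pole body, were past that rule between bas1 and ino4. SPC42 had an FPKM of 102 in bas1, 58.8 in ino4 and 79.8 in WT, and CNM67 had 147 in bas1, 87.9 in ino4 and 103 in WT. These are 1 of 10 genes for bas1 against WT, where 11.3% of all entries passed the rule. For bas1 against ino4 they are 2 of 10, where 15.0% did. TUB3, SPC42 and CNM67 were each higher in bas1. In that direction the shares of all entries were 3.98% against WT and 6.79% against ino4. Counts this small do not set the list apart. As for the kinetochore genes, no replicate check exists for any of these values.

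Among 4 genes of the phosphatase that opposes Ipl1 and its partners, all 4 were lower in bas1 than in WT, with a median of -0.17. Of all entries 49.4% were lower in bas1. GLC7, which encodes the catalytic subunit, had an FPKM of 465 in bas1, 503 in ino4 and 615 in WT. None of the 4 was 1.5-fold apart in any comparison.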
